A study of Mus musculus with 3 samples.

Results

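The glycolysis enzymes described here are the products of 10 genes, *Hk1*, *Hk2*, *Gpi1*, *Pfkm*, *Aldoa*, *Pgk1*, *Pgam2*, *Eno1*, *Eno3* and *Ldha*, whose RNA was measured by sequencing of mouse mandibular condyles. They were chosen by name, as every row of the deposited table whose symbol is a member, and they hold 11 of its 26970 rows because *Aldoa* is listed on 2 rows. *Pfkm*, *Pgam2* and *Eno3* are the muscle-type isoforms of their steps. *Hk2*, *Aldoa* and *Ldha* are abundant in muscle and also used by other tissues, and are called shared isoforms here. *Hk1*, *Gpi1*, *Pgk1* and *Eno1* are the ubiquitous forms, of which *Gpi1* and *Pgk1* serve muscle and other tissues alike. Each row averaged at least 1 FPKM over the libraries, where FPKM counts fragments relative to gene length and library size.

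The study asked how loss of 1 or both copies of *Dspp*, which encodes the matrix protein dentin sialophosphoprotein, alters the condyle, the bony head of the lower jaw with its cartilage cap. The groups were WT mice (+/+), *Dspp*+/- mice and *Dspp*-/- mice on the C57BL/6 background. The knockout is global, so every cell of the animal carries it, and *Dspp*+/- mice came from crosses of *Dspp*-/- with C57BL/6 WT mice. Condyles of 4-month-old animals were taken with cartilage and subchondral bone still joined, and each of the WT and *Dspp*+/- samples pooled 3 animals. The age and number of the animals behind the *Dspp*-/- sample are not given in the sources used here. The labels speak of triplicates, but the table holds 1 value per gene and genotype, read here as 1 library each, so no test between genotypes was possible and every difference is one between single libraries.

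Glycolysis splits glucose into pyruvate, which lactate dehydrogenase can turn into lactate, and yields ATP without oxygen. Several of its steps are run by enzymes encoded by more than one gene, and skeletal muscle uses forms that are scarce elsewhere, *Pfkm*, *Pgam2* and *Eno3* among them. In the condyle, cartilage cells are known for relying on glycolysis in a tissue without blood vessels, while chewing muscle inserts at the condylar neck.

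As recovered from the deposited values and GENCODE M21 gene lengths, and not reported by the submitters, the libraries held from 20241576 to 23613619 fragments. The share of mitochondrial genes in all FPKM was 25% for WT, 36.9% for *Dspp*+/- and 37.3% for *Dspp*-/-. Since FPKM is relative to the whole library, each level below depends on what else the library holds. The markers of the labelled tissue were present, with *Col2a1* of cartilage at 761 FPKM and *Col1a1* of bone at 6675 FPKM in WT. Both were lower in the mutant libraries, at 94.2 and 1719 FPKM in *Dspp*+/- and at 308 and 3610 FPKM in *Dspp*-/-. The 20 skeletal muscle markers together reached 12300 FPKM in WT, 16580 FPKM in *Dspp*+/- and 13508 FPKM in *Dspp*-/-. In bulk tissue of this kind, fewer cells of a type and less RNA per cell cannot be told apart. Intervals given below are 95% intervals from the fragments recovered for each value, and they cover counting error only, not the spread between mice.

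To set control regions of muscle-type and ubiquitous genes side by side, the 250 bases before the most upstream RefSeq start are printed. They are given for the *Pgam2* and *Pgam1* pair and the *Eno3* and *Eno1* pair (RefSeq, GRCm38.p6, 5′ to 3′ on the gene's strand). Capitals mark matches, on either strand and with overlaps allowed, to CAGCTG (an E-box bound by muscle regulators such as MyoD), to the MEF2 motif, or to ACGTG and GCGTG (the core letters bound by hypoxia-inducible factors). The windows are chr11:5803797-5804046 on the minus strand for *Pgam2*, chr19:41911621-41911870 on the plus strand for *Pgam1*, chr11:70656926-70657175 on the plus strand for *Eno3* and chr4:150236458-150236707 on the plus strand for *Eno1*.
Pgam2: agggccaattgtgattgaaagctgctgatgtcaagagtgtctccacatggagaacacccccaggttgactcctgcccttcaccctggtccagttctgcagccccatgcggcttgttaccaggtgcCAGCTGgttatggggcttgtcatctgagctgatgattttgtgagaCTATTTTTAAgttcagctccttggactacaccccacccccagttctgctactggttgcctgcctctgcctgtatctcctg
Pgam1: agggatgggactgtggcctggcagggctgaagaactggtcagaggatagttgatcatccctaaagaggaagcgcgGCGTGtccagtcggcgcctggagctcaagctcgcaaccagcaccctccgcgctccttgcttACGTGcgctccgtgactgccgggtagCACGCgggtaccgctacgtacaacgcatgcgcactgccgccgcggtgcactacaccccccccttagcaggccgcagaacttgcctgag
Eno3: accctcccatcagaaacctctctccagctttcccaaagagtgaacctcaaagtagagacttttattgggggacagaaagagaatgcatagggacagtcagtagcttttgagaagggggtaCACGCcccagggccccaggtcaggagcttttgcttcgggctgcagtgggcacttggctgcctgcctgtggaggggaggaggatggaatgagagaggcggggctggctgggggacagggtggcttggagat
Eno1: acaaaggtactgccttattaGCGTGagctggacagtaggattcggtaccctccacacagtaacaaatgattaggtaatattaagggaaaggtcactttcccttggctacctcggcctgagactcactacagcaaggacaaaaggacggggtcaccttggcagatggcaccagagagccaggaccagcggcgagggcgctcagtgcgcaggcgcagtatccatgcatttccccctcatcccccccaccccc

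Of the 10 members, *Pgam2* alone held a match to the MEF2 motif, which ends 71 bases before the start. It also held CAGCTG, ending 120 bases before the start, and *Gpi1* was the other member with that motif. By comparison, 3.03% of 27025 promoter windows of this length held the MEF2 motif and 12.7% held CAGCTG. The hypoxia-related letters were found in *Hk2*, *Pfkm*, *Pgk1*, *Eno1*, *Eno3* and *Ldha*, against 38.6% of windows. *Ldha* had 5 such matches, counting the overlapping pair within each palindrome separately, *Pgam1* had 3, and *Eno3* and *Eno1* had 1 each. *Pfkm* has 4 RefSeq starts, *Aldoa* and *Eno1* 3 each and *Hk1* and *Ldha* 2 each, and only the most upstream of each was searched. These matches describe letters in the window and not binding.

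The muscle-type isoforms were the leading transcripts of their steps in all 3 libraries. *Aldoa* was the most abundant member, followed by *Eno3*, *Pgam2* and *Pfkm*, then *Ldha*, *Pgk1* and *Gpi1*, with *Eno1*, *Hk2* and *Hk1* lowest. In WT, *Aldoa* exceeded 99.8% of the 13026 genes that averaged 1 FPKM or more, and *Hk1* exceeded 66.6%. The order was the same in WT and *Dspp*-/-. In *Dspp*+/-, *Hk2* stood above *Eno1*, with counting intervals of 41.4 to 43.6 FPKM and 40.1 to 42.4 FPKM that overlap. In *Dspp*-/-, *Pfkm* and *Ldha* lay next to each other, with intervals of 162.5 to 168.4 FPKM and 156.0 to 161.7 FPKM that do not overlap.

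**Figure D1:**
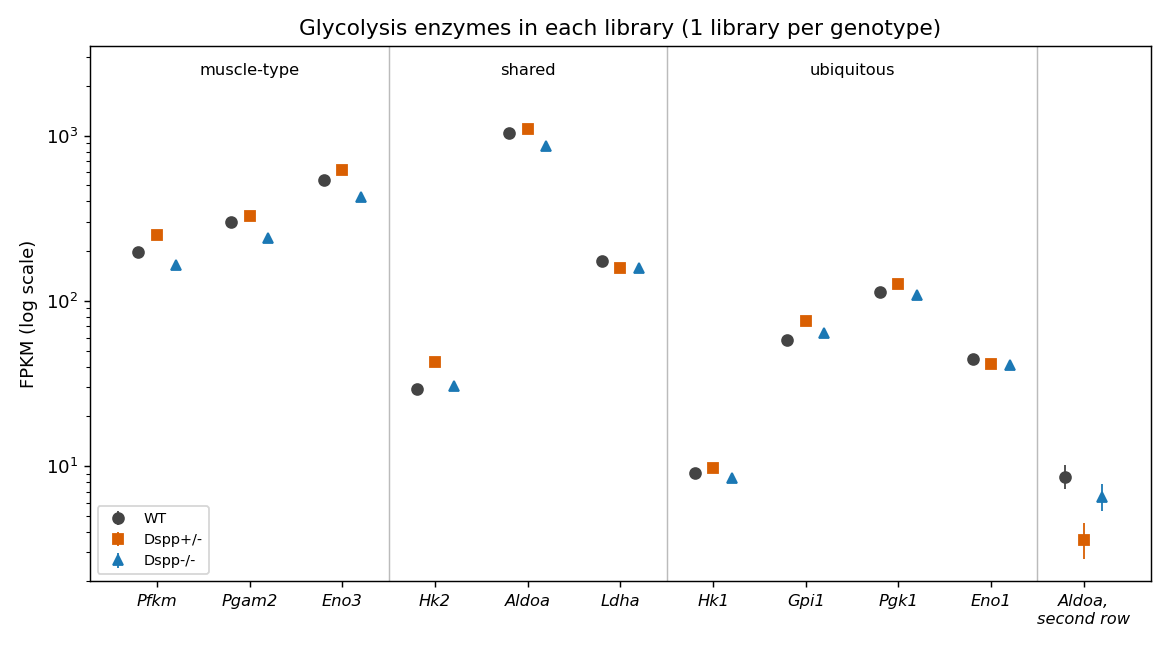
FPKM of each glycolysis enzyme row on a log scale in the WT, *Dspp*+/- and *Dspp*-/- libraries, with 1 library per genotype, grouped by isoform type, and with bars for the 95% counting interval, often smaller than the symbol. *Aldoa* lies highest, at 1034 FPKM in WT, and the 3 muscle-type isoforms follow, each highest in *Dspp*+/- and lowest in *Dspp*-/-.

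The 3 muscle-type isoforms had one pattern, above WT in *Dspp*+/- and below WT in *Dspp*-/-. *Pfkm*, the muscle subunit of phosphofructokinase and so of the main control step of glycolysis, is encoded on chromosome 15 (97990470 to 98030332 in the table, whose build is not named). Its level was 196 FPKM in WT, 250 FPKM in *Dspp*+/- and 165 FPKM in *Dspp*-/-. The *Dspp*+/- library thus held 1.27 times the WT level (1.24 to 1.299) and the *Dspp*-/- library 0.842 times (0.822 to 0.863). Between the mutants, *Pfkm* differed most of all 10 members, with *Dspp*-/- at 0.663 times the *Dspp*+/- level (0.648 to 0.678).

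*Pgam2*, the muscle phosphoglycerate mutase (chromosome 11, 5751640 to 5753733), stood at 299 FPKM in WT, 326 FPKM in *Dspp*+/- and 241 FPKM in *Dspp*-/-. Those values are 1.09 times WT (1.05 to 1.13) and 0.807 times WT (0.775 to 0.840). Both intervals lay away from 1, on opposite sides. *Eno3*, the muscle enolase on the same chromosome (70548028 to 70553339), stood at 540 FPKM in WT, 618 FPKM in *Dspp*+/- and 425 FPKM in *Dspp*-/-. It was 1.15 times WT in *Dspp*+/- (1.12 to 1.17) and 0.787 times WT in *Dspp*-/- (0.770 to 0.803), the lowest fold of the 10 members in *Dspp*-/-. No 100-base stretch of *Pgam2* or *Eno3* occurs in another gene of GENCODE M21. For *Pfkm*, 7.43% of the stretches do, and 10.7% of its exon length overlaps other genes. For *Gpi1* these shares are 7.18% and 11.5%.

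Of the shared isoforms, *Aldoa* had the same pattern as the muscle-type genes and the other two did not. *Aldoa*, the aldolase of muscle and most other tissues (chromosome 7, 126394406 to 126399923), stood at 1034 FPKM in WT, 1101 FPKM in *Dspp*+/- and 862 FPKM in *Dspp*-/-. This was 1.07 times WT in *Dspp*+/- (1.05 to 1.08) and 0.834 times in *Dspp*-/- (0.825 to 0.844). *Hk2*, the insulin-responsive hexokinase of muscle and fat (chromosome 6, 82702006 to 82751435), stood at 29.1 FPKM in WT, 42.5 FPKM in *Dspp*+/- and 30.5 FPKM in *Dspp*-/-. Its fold in *Dspp*+/-, 1.46 (1.40 to 1.52), was the highest of the 10 members, and in *Dspp*-/- it was 1.05 times WT (1.00 to 1.10). *Ldha*, the lactate dehydrogenase subunit that favours lactate formation (chromosome 7, 46490899 to 46505051), was below WT in both mutants, at 174 FPKM in WT, 158 FPKM in *Dspp*+/- and 159 FPKM in *Dspp*-/-. Its 2 mutant libraries could not be told apart by counting error, at a fold of 1.01 between them (0.983 to 1.03).

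The ubiquitous isoforms lay closer to WT in *Dspp*-/- than the muscle-type ones did with FPKM as deposited, an order that depends on scaling. Without mitochondrial, hemoglobin, immunoglobulin and skeletal muscle genes in the scaling, the log2 ratio of *Gpi1* was 0.26 there, against -0.13 for *Pfkm*, -0.19 for *Pgam2* and -0.23 for *Eno3*. *Gpi1*, glucose-6-phosphate isomerase (chromosome 7, 33900755 to 33929761), was above WT in both mutants, at 57.8 FPKM in WT, 76.0 FPKM in *Dspp*+/- and 64.2 FPKM in *Dspp*-/-. Its folds were 1.31 in *Dspp*+/- (1.277 to 1.354) and 1.11 in *Dspp*-/- (1.08 to 1.14). *Eno1*, the enolase of most tissues (chromosome 4, 150321178 to 150333336), was below WT by nearly the same amount in both, at 44.2 FPKM in WT, 41.2 FPKM in *Dspp*+/- and 41.2 FPKM in *Dspp*-/-. Its folds were 0.932 (0.896 to 0.970) and 0.930 (0.894 to 0.968). *Hk1*, the hexokinase of most tissues (chromosome 10, 62104634 to 62215687), differed little, at 9.14 FPKM in WT, 9.73 FPKM in *Dspp*+/- and 8.48 FPKM in *Dspp*-/-. The interval of its fold in *Dspp*+/- included 1 (0.996 to 1.14), and that in *Dspp*-/- ended just under it (0.866 to 0.996).

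*Pgk1*, the X-linked phosphoglycerate kinase that makes the first ATP of the pathway (chromosome X, 105230706 to 105247305), stood at 112 FPKM in WT, 126 FPKM in *Dspp*+/- and 109 FPKM in *Dspp*-/-. Its fold was 1.12 in *Dspp*+/- (1.08 to 1.16), and the interval in *Dspp*-/- included 1 (0.932 to 1.01). The share of female tissue differed between the libraries, since *Xist*, transcribed from the inactive X chromosome of females, had 2 fragments in WT but 12084 fragments in *Dspp*+/- and 10563 fragments in *Dspp*-/-. Sex and genotype therefore cannot be told apart in either comparison with WT. Copies limit how well *Pgk1* and *Eno1* can be placed, because 51.7% of the 100-base stretches of *Pgk1* and 20.4% of those of *Eno1* also occur in other genes. The copies listed in the table were low, with *Pgk1-rs7* at 0.315, 0.844 and 0.322 FPKM and *Eno1b* at 3.45, 5.37 and 4.45 FPKM in WT, *Dspp*+/- and *Dspp*-/-.

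The second row of *Aldoa* (ENSMUSG00000114515, chromosome 7, 126399962 to 126408280) lies directly upstream of the main *Aldoa* row (ENSMUSG00000030695) on the same strand. It rested on few fragments, which numbered 139 for WT, 67 for *Dspp*+/- and 115 for *Dspp*-/- and gave 8.60, 3.55 and 6.47 FPKM. Its direction in *Dspp*+/- was opposite to that of the main row, at 0.413 times WT (0.304 to 0.557), and in *Dspp*-/- it was 0.753 times WT (0.583 to 0.971). It is left out of the group medians below.

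**Figure D2:**
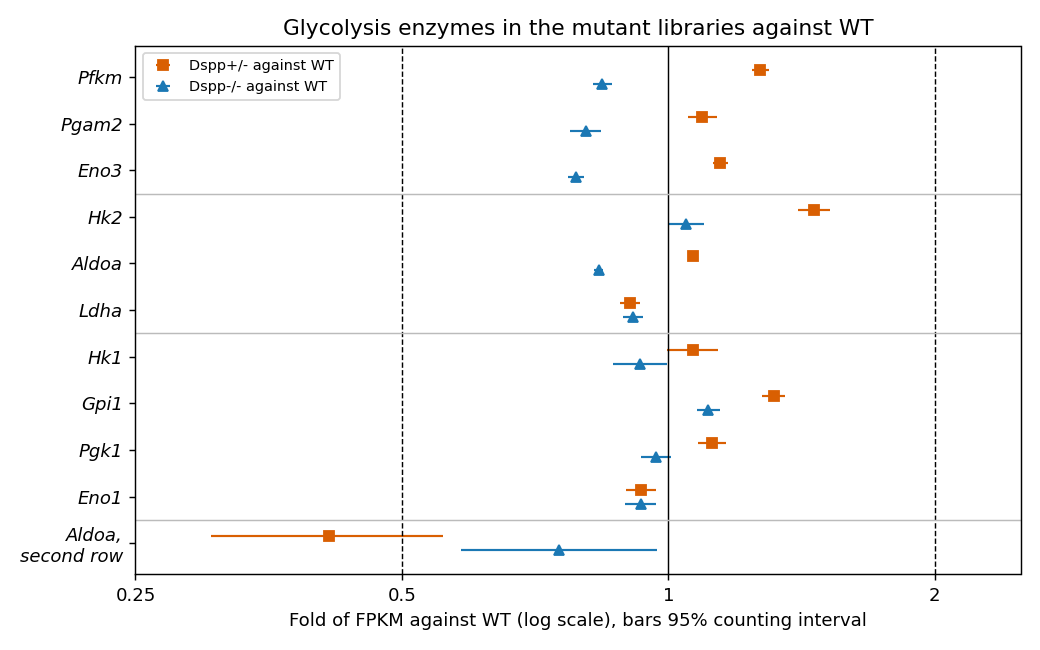
Fold of FPKM against WT on a log scale for each glycolysis enzyme row in *Dspp*+/- and *Dspp*-/-, with bars for the 95% counting interval, a solid line at 1 and dashed lines at 0.5 and 2. *Pfkm*, *Pgam2*, *Eno3* and *Aldoa* lie right of 1 in *Dspp*+/- and left of it in *Dspp*-/-, and the second *Aldoa* row alone passes a dashed line.

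Differences of 2-fold were counted on log2(FPKM + 1), a scale on which the change of genes with low FPKM is understated. In *Dspp*+/-, 0 of the 11 rows were 2-fold higher and 1 was 2-fold lower, the second *Aldoa* row, where 4.88% of the 13026 genes compared were higher and 2.86% lower. In *Dspp*-/-, 0 of 11 rows were 2-fold higher and 0 lower, beside 4.05% and 1.37% of all genes. Between *Dspp*-/- and *Dspp*+/-, again 0 of 11 passed in either direction, beside 0.852% higher and 0.798% lower. Over 11 rows each of these shares comes to less than 1 row. For *Dspp*+/-, the largest absolute log2 ratio of the 10 members, 0.53 for *Hk2*, was greater than that of 76.8% of genes, and in *Dspp*-/- the largest, 0.34 for *Eno3*, was greater than that of 62.3%. Between the mutants the largest, 0.59 for *Pfkm*, exceeded that of 92.6% of genes. Each of these is the largest of 10 values set against single genes, which by itself raises its rank.

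By isoform group, the median log2 ratio in *Dspp*+/- was 0.20 for the 3 muscle-type, 0.09 for the 3 shared and 0.12 for the 4 ubiquitous genes, against 0.06 over all genes. The medians in *Dspp*-/- were -0.31, -0.13 and -0.07 in the same order, against 0.01 over all genes. All 3 muscle-type genes were above WT in *Dspp*+/- and below it in *Dspp*-/-, where 3 of 4 ubiquitous genes were above in *Dspp*+/- and 3 of 4 below in *Dspp*-/-. Of the 13026 genes compared, 7337 were above WT in *Dspp*+/- and 6416 below it in *Dspp*-/-. The ubiquitous *Hk1* and *Pgk1* had the same order as the muscle-type genes. The interval of *Hk1* included 1 in *Dspp*+/-, and that of *Pgk1* did in *Dspp*-/-. The comparison of the mutants with each other, which does not use the WT library, gave medians of -0.54 for the muscle-type, -0.35 for the shared and -0.19 for the ubiquitous group, against -0.04 over all genes. In that comparison 9 of 10 members were lower in *Dspp*-/-, the exception being *Ldha*, beside 7207 of the 13026 genes compared. *Eno1* counted among the 9 at 0.998 times the *Dspp*+/- level (0.960 to 1.04), an interval that included 1, as did that of *Ldha*. Both comparisons with WT share the one WT library, so a value that is off there moves both.

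Scaling decided the sign of 3 members in *Dspp*-/-. When the libraries were scaled without mitochondrial genes, *Pgk1* moved above WT, and without mitochondrial, hemoglobin, immunoglobulin and skeletal muscle genes *Hk1*, *Pgk1* and *Eno1* did. This last scaling moved the median of all genes from 0.06 to 0.13 in *Dspp*+/- and from 0.01 to 0.11 in *Dspp*-/-. *Pfkm*, *Pgam2*, *Eno3* and *Aldoa* stayed above WT in *Dspp*+/- and below it in *Dspp*-/- under every scaling tried, although *Aldoa* in *Dspp*+/- was then as low as 0.02 on the log2 scale.

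**Figure D3:**
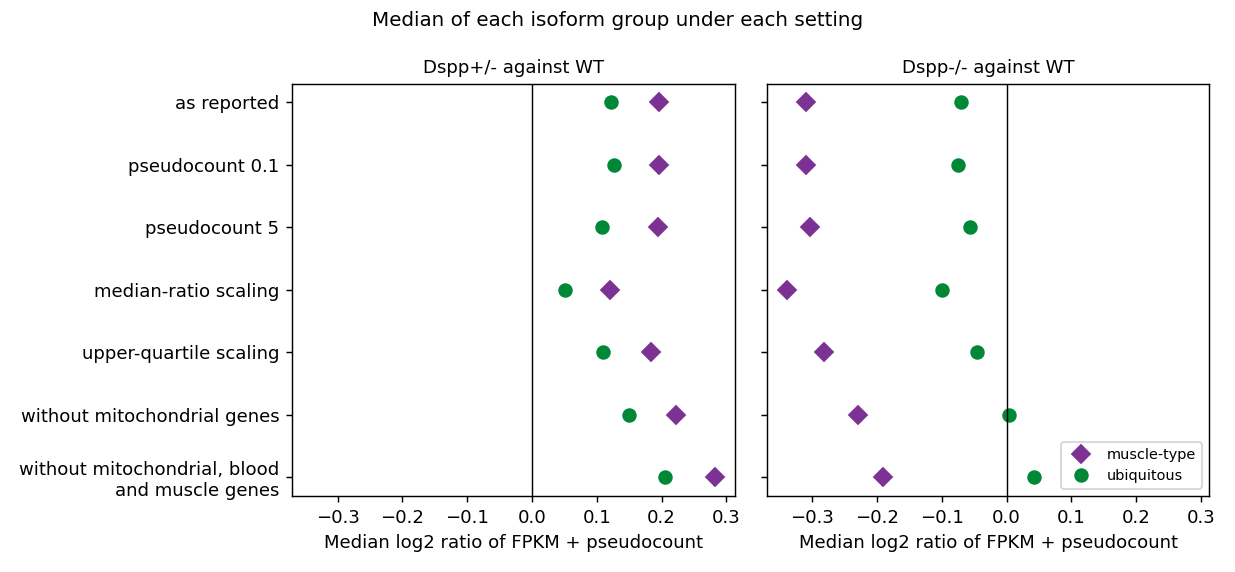
Median log2 ratio to WT of the 3 muscle-type and 4 ubiquitous genes in *Dspp*+/- and *Dspp*-/- under the reported setting, other pseudocounts and other scalings. The muscle-type median stays right of 0 in *Dspp*+/- and left of 0 in *Dspp*-/-, from -0.34 to -0.19, and the ubiquitous median in *Dspp*-/- crosses 0.

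The ratio of isoforms of the same step within a library does not depend on how the library is scaled. For enolase, the ratio of *Eno3* to *Eno1* was 12.2 in WT (11.8 to 12.6), 15.0 in *Dspp*+/- (14.6 to 15.4) and 10.3 in *Dspp*-/- (9.995 to 10.7), so the muscle form gained on the ubiquitous one in *Dspp*+/- and lost on it in *Dspp*-/-. The fold of this ratio against WT was 1.23 in *Dspp*+/- (1.18 to 1.284) and 0.846 in *Dspp*-/- (0.808 to 0.885). For phosphoglycerate mutase, *Pgam2* to *Pgam1* was 6.97 in WT, 8.30 in *Dspp*+/- and 7.31 in *Dspp*-/-. It was above WT in *Dspp*+/-, at a fold of 1.19 (1.10 to 1.29), and in *Dspp*-/- the interval included 1 (0.968 to 1.14). *Pgam1*, the broadly used mutase, was itself lower in both mutants, at 42.9 FPKM in WT, 39.3 FPKM in *Dspp*+/- and 32.9 FPKM in *Dspp*-/-, and 33.9% of its 100-base stretches occur in other genes.

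For phosphofructokinase, *Pfkm* to *Pfkl* was 29.2 in WT, 53.3 in *Dspp*+/- and 47.0 in *Dspp*-/-, higher in both mutants by 1.83-fold (1.65 to 2.02) and 1.61-fold (1.44 to 1.80). This went in both mutants with a lower *Pfkl*, the liver-type subunit, at 6.73 FPKM in WT, 4.68 FPKM in *Dspp*+/- and 3.52 FPKM in *Dspp*-/-. *Pfkp*, the remaining gene of this step, stood at 3.22, 3.32 and 2.94 FPKM in the same order. Its folds were 1.03 in *Dspp*+/- (0.942 to 1.13) and 0.915 in *Dspp*-/- (0.832 to 1.01). The fold of *Pfkm* in *Dspp*-/-, 0.842, was below that of *Pfkp*, so *Pfkm* gained there on *Pfkl* but not on *Pfkp*. For hexokinase, *Hk2* to *Hk1* was 3.18 in WT, 4.37 in *Dspp*+/- and 3.59 in *Dspp*-/-, at folds of 1.37 (1.27 to 1.48) and 1.13 (1.04 to 1.23). *Aldoa* exceeded *Aldoc*, the brain aldolase, by 1365 times in WT, 2828 times in *Dspp*+/- and 1278 times in *Dspp*-/-, ratios that rest on an *Aldoc* level under 1 FPKM in every library.

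The lactate dehydrogenase pair was the furthest of the 6 pairs from WT in *Dspp*+/-, and in *Dspp*-/- *Pfkm/Pfkl* and *Eno3/Eno1* were further from WT than it was. *Ldha* to *Ldhb* was 2.84 in WT (2.71 to 2.99), 1.05 in *Dspp*+/- (1.02 to 1.09) and 2.47 in *Dspp*-/- (2.36 to 2.59). In *Dspp*+/- the ratio was 0.371 times that of WT (0.350 to 0.393), and in *Dspp*-/- 0.869 times (0.813 to 0.929). *Ldhb*, the heart-type subunit of oxidative tissue, stood at 61.3 FPKM in WT, 149 FPKM in *Dspp*+/- and 64.3 FPKM in *Dspp*-/-, while *Ldha* was 0.905 times WT in *Dspp*+/- (0.882 to 0.928). *Ldhb* thus made up 26.0% of lactate dehydrogenase transcripts in WT, 48.6% in *Dspp*+/- and 28.8% in *Dspp*-/-, as FPKM.

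**Figure D4:**
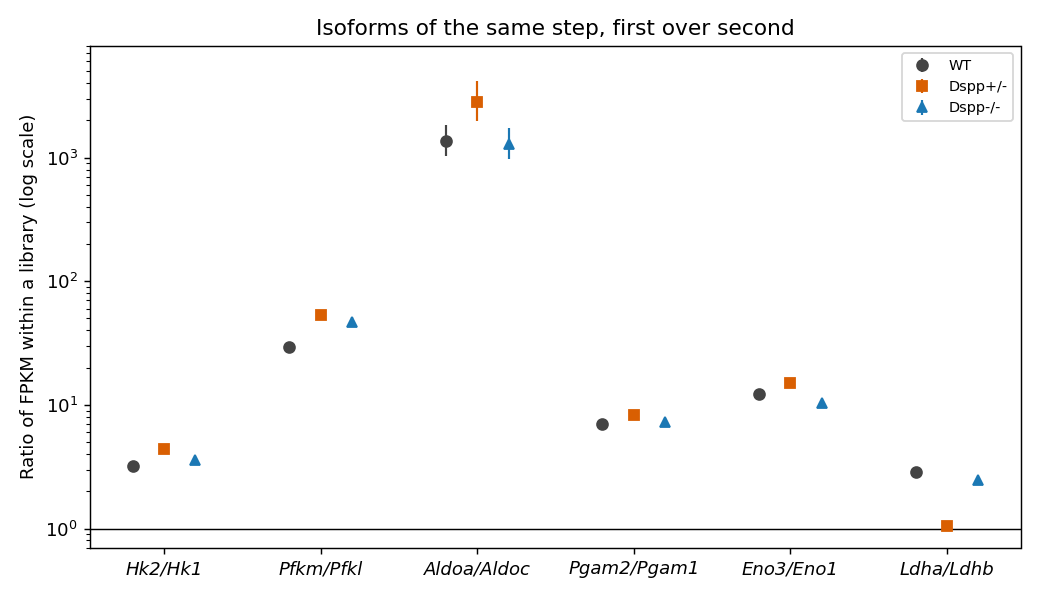
Ratio of the FPKM of 2 isoforms of a step within each library, on a log scale, with bars for the 95% counting interval and a line at 1. *Ldha/Ldhb* is near 1 in *Dspp*+/- and between 2 and 3 in WT and *Dspp*-/-, and *Eno3/Eno1* is highest in *Dspp*+/- and lowest in *Dspp*-/-.

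As shares of a step, the muscle forms varied little. *Eno3* held 92.2% of the enolase FPKM of WT, 93.6% of that of *Dspp*+/- and 90.9% of that of *Dspp*-/-. *Pgam2* held 87.4%, 89.2% and 88.0% of phosphoglycerate mutase, and *Pfkm* 95.2%, 96.9% and 96.2% of phosphofructokinase, in the same order. Shares varied more for lactate dehydrogenase, given above, and for hexokinase. *Hk3*, the hexokinase of white blood cells, held 4.80% of the hexokinase step in WT against 19.1% in *Dspp*+/- and 16.5% in *Dspp*-/-. *Hk2* held 70.4% of that step in WT, 64.7% in *Dspp*+/- and 63.8% in *Dspp*-/-, although its FPKM was above WT in both.

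Of the 20 other glycolysis genes in the table, 11 averaged 1 FPKM or more. In *Dspp*+/-, 2 were at least 2-fold higher and 0 lower, and in *Dspp*-/- likewise 2 higher and 0 lower, with medians of 0.26 and -0.10 on the log2 scale. Those higher in *Dspp*+/- were *Hk3*, at 1.99 FPKM in WT, 12.5 FPKM in *Dspp*+/- and 7.88 FPKM in *Dspp*-/-, and *Ldhb*. Those higher in *Dspp*-/- were *Hk3* and *Adpgk*, the ADP-dependent glucokinase, at 4.74 FPKM in WT, 9.77 FPKM in *Dspp*+/- and 12.1 FPKM in *Dspp*-/-. These counts used log2(FPKM + 1). As FPKM without the added 1, *Adpgk*, *Gapdh* and *Eno2* also passed 2-fold in *Dspp*+/-, at 2.06, 2.085 and 0.491 times WT. Among the abundant genes of the list, triosephosphate isomerase *Tpi1* stood at 169, 203 and 157 FPKM and the broadly used pyruvate kinase *Pkm* at 179, 188 and 150 FPKM in WT, *Dspp*+/- and *Dspp*-/-. *Tpi1* and *Pkm* had the order of the muscle-type genes, highest in *Dspp*+/- and lowest in *Dspp*-/-. *Gapdh* was listed at only 3.79, 7.90 and 2.24 FPKM, and 20.9% of its 100-base stretches occur in 86 other genes, so its level is uncertain.

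*Bpgm*, the red-cell enzyme that makes 2,3-bisphosphoglycerate, stood at 8.47 FPKM in WT, 15.8 FPKM in *Dspp*+/- and 14.5 FPKM in *Dspp*-/-, and the red-cell pyruvate kinase *Pklr* at 0.107, 1.86 and 0.861 FPKM. Most markers of blood cells were, like these genes and *Hk3*, higher in both mutant libraries. Of 12 erythroid markers 11 were at least 2-fold higher in each mutant, with sums of 953, 3820 and 3718 FPKM in WT, *Dspp*+/- and *Dspp*-/-, and no marker was at 0. All 12 neutrophil markers were at least 2-fold higher in each, with sums of 625, 2782 and 3681 FPKM. Of 9 B cell markers compared, 6 were at least 2-fold higher in each, with sums of 27.7, 81.3 and 66.8 FPKM. The B cell marker *Vpreb1* and the erythroid marker *Tfrc* were below WT in *Dspp*+/-, at 0.403 (0.208 to 0.751) and 0.864 times. The part of blood cells in the levels of the glycolysis genes was not tested.

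Markers of the joint tissue went the other way. In *Dspp*+/-, 8 of 11 chondrocyte, 10 of 12 osteoblast and 6 of 10 osteoclast markers were at least 2-fold lower, and in *Dspp*-/- 7, 4 and 1 were, with none higher in either. The chondrocyte list summed to 2808, 1150 and 1329 FPKM, the osteoblast list to 16407, 4634 and 9035 FPKM and the osteoclast list to 2306, 835 and 1348 FPKM in WT, *Dspp*+/- and *Dspp*-/-. Of 7 adipocyte markers compared, 1 was higher and 1 lower in *Dspp*+/- and 5 were higher in *Dspp*-/-, with sums of 107, 173 and 228 FPKM. What these lists contribute to *Ldha*, *Eno1*, *Pgk1* and the other members used by many cell types was not tested.

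The skeletal muscle markers, whose part in the levels of the muscle-type isoforms was not tested, were mixed. Of 17 markers compared, 13 were above WT in *Dspp*+/-, 1 of them at least 2-fold and 2 at least 2-fold lower, with a median log2 ratio of 0.41. By contrast, 9 were above and 8 below in *Dspp*-/-, none by 2-fold, with a median of 0.07. Skeletal actin, *Acta1*, stood at 5609 FPKM in WT, 8162 FPKM in *Dspp*+/- and 7150 FPKM in *Dspp*-/-. *Tnnc2*, fast troponin C, was listed at 0 in WT and *Dspp*-/-, but 74.0% of its exon length overlaps *Ube2c*, so its level is uncertain. All other markers of the list were above 0 in every library.

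The fast-fibre markers of the list did not move as 1 group in *Dspp*+/-. *Myh4*, the myosin of the fastest and most glycolytic fibres, stood at 124 FPKM in WT, 18.2 FPKM in *Dspp*+/- and 111 FPKM in *Dspp*-/-, and *Actn3*, the actinin of fast fibres, at 122, 31.0 and 89.5 FPKM. *Myh2*, the myosin of fast oxidative fibres, stood at 342 FPKM in WT, 706 FPKM in *Dspp*+/- and 359 FPKM in *Dspp*-/-. *Dspp*+/- thus had less *Myh4* and *Actn3* RNA and more *Myh2* and *Ldhb* RNA than the WT library, while *Pfkm*, *Pgam2* and *Eno3* were above WT there. Among other markers of the list in *Dspp*+/-, *Atp2a1* was 1.54, *Tnnt3* 1.345, *Tnni2* 1.26 and *Myh1* 1.11 times WT. *Myl1* was 0.964 and *Myoz1* 0.793 times WT there. Of the 17 markers compared, 13 were above WT in *Dspp*+/- and 4 below. Fast-fibre genes were also mixed in *Dspp*-/-, where *Tnni2* was 0.770 and *Tnnt3* 0.840 times WT, but *Atp2a1* was 1.13, *Casq1* 1.10, *Myh1* 1.08 and *Myl1* 1.07 times WT.

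Summed, the muscle-type isoforms were lower in both mutants relative to the skeletal muscle list. They came to 8.41% of the FPKM of the skeletal muscle list for WT, 7.20% for *Dspp*+/- and 6.15% for *Dspp*-/-. Without *Acta1*, which made up a large part of the list, the percentages were 15.5, 14.2 and 13.1. *Eno3* was 74.1% of the level of *Ckm*, muscle creatine kinase, in WT, 63.6% in *Dspp*+/- and 53.4% in *Dspp*-/-. *Pgam2* was 41.0%, 33.6% and 30.3% of *Ckm*, and *Pfkm* was 27.0%, 25.7% and 20.8%, in the same order. Each was thus above WT in *Dspp*+/- as FPKM and below it relative to *Ckm*, and below WT on both scales in *Dspp*-/-. In *Dspp*+/- this depended on the muscle gene chosen. *Myh1*, the most abundant myosin heavy chain of the list in WT, was 1.11 times WT there, less than *Pfkm* and *Eno3*. It depended on that gene in *Dspp*-/- too. *Tnni2*, *Myoz1*, *Actn3* and *Tnnt1* were 0.770, 0.742, 0.734 and 0.695 times WT there, each less than all 3 isoforms. Of the 17 markers compared, 9 were above WT in *Dspp*-/-. For *Ckm*, 5.71% of the 100-base stretches occur in another gene, and 15.5% of its exon length overlaps one.

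The genes of muscle glycogen use and phosphagen energy differed from the muscle-type glycolysis genes in *Dspp*-/-. All 10 were above WT in *Dspp*+/-, with a median log2 ratio of 0.51. In *Dspp*-/-, where *Pfkm*, *Pgam2* and *Eno3* were below, 9 of 10 were above, with a median of 0.36. Over all 13026 genes compared, 7337 were above WT in *Dspp*+/- and 6609 in *Dspp*-/-, with medians of 0.06 and 0.01. *Pygm*, muscle glycogen phosphorylase, stood at 225 FPKM in WT, 320 FPKM in *Dspp*+/- and 265 FPKM in *Dspp*-/-. *Ckmt2*, the mitochondrial creatine kinase of muscle, was at least 2-fold higher in *Dspp*+/-, at 421, 853 and 584 FPKM. *Ampd1*, muscle AMP deaminase, was so in *Dspp*-/-, at 4.05, 8.86 and 9.98 FPKM. In *Dspp*+/- it was 2.19 times WT as FPKM and under 2-fold only with 1 FPKM added. Whether the 2 gene groups differ beyond the spread between mice could not be tested with 1 library per genotype.

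Among 15 genes of glucose and lactate transport and regulation that were compared, 2 were at least 2-fold higher in *Dspp*+/- and 1 in *Dspp*-/-, with none lower and medians of 0.29 and 0.05. *Pdk4*, which inhibits pyruvate dehydrogenase and so holds glucose carbon back from oxidation, stood at 52.7 FPKM in WT, 297 FPKM in *Dspp*+/- and 133 FPKM in *Dspp*-/-. *Slc16a1*, a transporter of lactate, stood at 9.42, 22.2 and 18.3 FPKM. *Slc2a3* was 2.04 times WT in *Dspp*+/- and 2.18 times in *Dspp*-/- as FPKM, and under 2-fold only with 1 FPKM added. *Slc2a4*, the insulin-responsive glucose transporter of muscle and fat, stood at 54.1 FPKM in WT, 88.3 FPKM in *Dspp*+/- and 56.3 FPKM in *Dspp*-/-, the same order as *Hk2*, which phosphorylates the glucose it brings in. *Slc2a1*, the glucose transporter of most cells, was below WT in both mutants, at 8.29, 6.31 and 4.61 FPKM, and *Slc16a3*, the lactate exporter of glycolytic cells, likewise at 13.1, 9.54 and 7.88 FPKM.

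**Figure D5:**
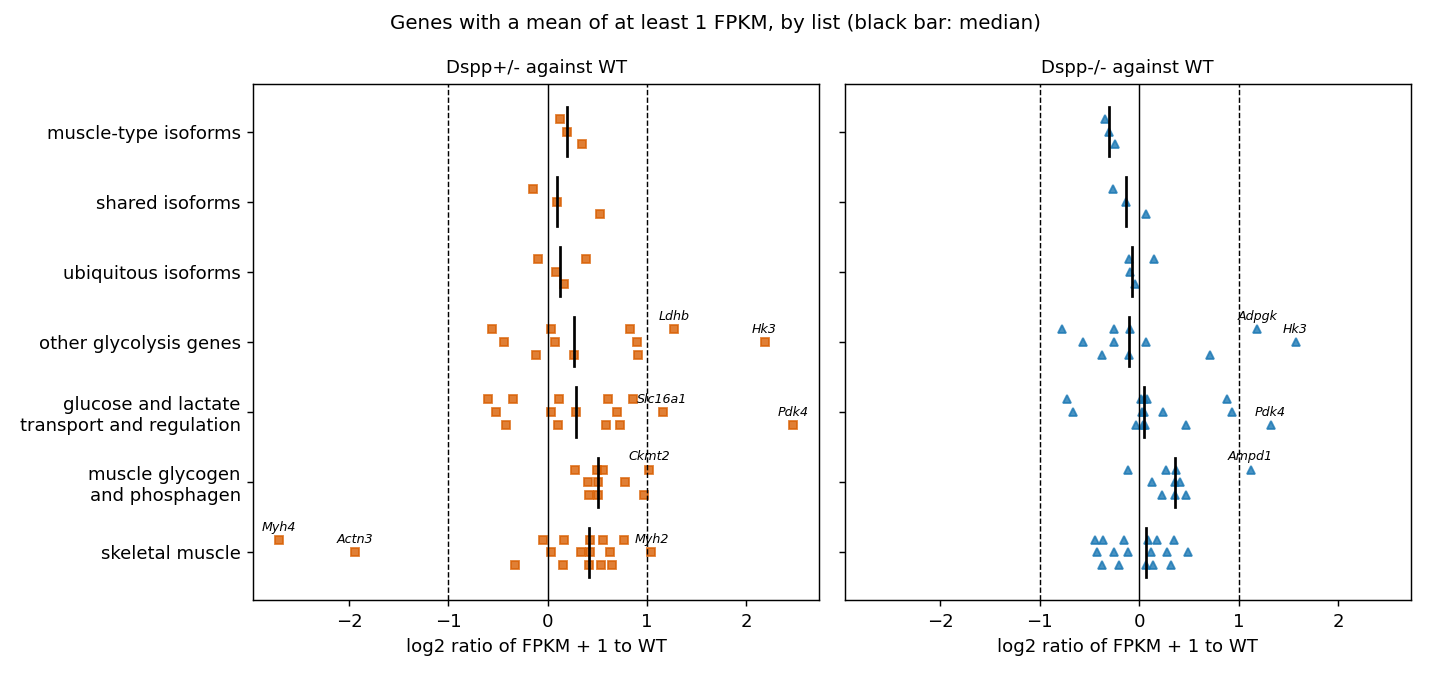
Log2 ratio of FPKM + 1 to WT for genes averaging 1 FPKM or more in *Dspp*+/- and *Dspp*-/-, by gene list, with black bars for the median, dashed lines at 2-fold and names for genes past them. The muscle-type isoforms lie left of 0 in *Dspp*-/-, where the muscle glycogen and phosphagen genes have a median of 0.36.

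The genes whose pattern over the 3 libraries was most like that of each muscle-type isoform were sought among 7122 genes averaging 5 FPKM or more, by the distance between their 2 log2 ratios to WT. Nearest to *Pfkm* were *Lysmd2*, *Neurl1a* and *Mapkapk2*, at distances of 0.011, 0.011 and 0.024. Nearest to *Pgam2* were *Cln6*, *Trp53i11* and *Prr14*, and nearest to *Eno3* were *Mrps7*, *Bin1* and *Timm23*. Such closeness is common over 3 libraries, as 65 genes lay within 0.1 of *Pfkm*, 136 of *Pgam2* and 71 of *Eno3*.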

How the data were processed

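Total RNA of condyles was sequenced after library preparation with a NEBNext Ultra kit by CapitalBio Technology, with 1 library each for WT, *Dspp*+/- and *Dspp*-/-. The submitters' processing notes name FastQC 0.11.5, HISAT2 2.1.0, StringTie 1.3.3b and DESeq 1.28.0 and list the build hg38, although the samples are mouse; the role of each tool, the annotation, the filters and the counting by strand are not given in the sources used here. The authors deposited 1 table with a value per gene and genotype whose unit is not named. The deposited values were read as FPKM, since each, multiplied by the gene's merged exons in GENCODE M21, came to whole multiples of 1 constant per library (within 0.02) for 98.4% to 98.5% of values under 100 fragments. Lengths were found for 26652 genes (98.8%). The table's positions are mouse, and none of the 11 member rows has its GENCODE M21 start and end, so its build is not GRCm38. No column of per-sample values was left unused.

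From the FPKM values, log2 ratios with a pseudocount of 1, folds with Clopper-Pearson intervals, levels with exact Poisson intervals, and folds of isoform ratios with exact conditional intervals of the odds ratio were computed. Genes averaging 1 FPKM or more were compared, with a threshold of 2-fold. The study's Kruskal-Wallis test cannot be run on 1 library per genotype, and no p-value is given. The scripts were tested on simulated data. Named genes are the 10 members, genes of the pathway and marker lists, and the 3 genes nearest in pattern to each muscle-type isoform. The members and lists were chosen with earlier results of these data known. In all, 11 alternatives were planned, and 1, adding the FPKM of copies to *Eno1* and *Pgam1*, was chosen after seeing the data. Shared 100-base stretches and exon overlaps come from GENCODE M21, and promoters from RefSeq, in which the members and the 3 partner genes searched all had a window. *Dspp* was not analysed here, and no check of the genotypes was made from it. Computations used scipy 1.17.1, numpy 2.4.6 and pandas 2.3.3 under Python 3.11.15, and figures matplotlib 3.10.9.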

Additional observations from a re-analysis of the deposited data

Results flagged for a closer look

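In 4 genes the *Dspp*+/- library lay above WT and the *Dspp*-/- library below it, with both counting intervals away from 1. The folds were 1.27 and 0.842 for *Pfkm*, 1.07 and 0.834 for *Aldoa*, 1.09 and 0.807 for *Pgam2*, and 1.15 and 0.787 for *Eno3*, each in *Dspp*+/- and then in *Dspp*-/-. Whether the genotypes differ in this way was not tested, since each has 1 library, and both folds use the same WT library. Of the 13026 genes compared, 7337 were above WT in *Dspp*+/- and 6416 below it in *Dspp*-/-, counted apart. How many of all genes meet both conditions with intervals away from 1 was not counted. For genes with many fragments such intervals exclude 1 at small shifts, as for *Aldoa* in *Dspp*+/- (1.05 to 1.08).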

How the results depend on the processing

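No replicate could be left out and no paired analysis was possible because each genotype has 1 library; counting error is the only error known, and an effect of genotype, sex or pool cannot be told apart. No group median of the muscle-type genes changed sign under another scaling or pseudocount. In *Dspp*+/- their median log2 ratio of 0.20 was 0.12 under median-ratio scaling, 0.22 without mitochondrial genes and 0.28 without mitochondrial, hemoglobin, immunoglobulin and muscle genes, under which the ubiquitous median was 0.20 in place of 0.12. In *Dspp*-/- the muscle-type median of -0.31 was -0.23 without mitochondrial genes and -0.19 under the last scaling, where the ubiquitous median was 0.043 in place of -0.07. Between the mutants, the muscle-type median of -0.54 was -0.50 under median-ratio and upper-quartile scaling, -0.49 without mitochondrial genes and -0.51 under the last scaling. *Eno1*, close to 0 there, changed sign under all 4 scalings. Of the 11 rows, the 1 that was 2-fold lower in *Dspp*+/- dropped to 0 with a pseudocount of 5 or a threshold of 4-fold, and between the mutants 1 row was higher and 1 lower at 1.5-fold. The cause of these shifts was not tested. The folds of isoform ratios stayed within their counting intervals with 1 FPKM added, where that of *Aldoa/Aldoc* in *Dspp*+/- was 1.35 in place of 2.07, and those of *Eno3/Eno1* and *Pgam2/Pgam1* did with the copies' FPKM added.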
